A study of Homo sapiens with 6 samples.

Results

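Expression of 32 genes of glucose breakdown and of the response to low oxygen was followed in 6 RNA-seq libraries from 2 established lines of human ovarian cancer cells, Hey and SKOV3. The genes were picked by symbol from a table of 59008 gene symbols, and all 32 were found in it. They encode 2 glucose transporters, 9 upper and 6 lower glycolysis enzymes, 5 proteins that decide the fate of lactate and pyruvate, 2 regulators of glycolytic flux and 8 products of hypoxia response genes. Values are transcripts per 1000000 (TPM), which scale each transcript by its length and each library to a fixed total, so a level can be compared between genes.

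Each line was sequenced in 3 states with 1 library per state, so no value has a replicate error. Parental cells were untreated. Polyploid giant cancer cells (PGCCs) were collected after 500 nM paclitaxel, which keeps microtubules from disassembling and arrests dividing cells, given for 16 hours and followed by recovery in regular medium. Both PGCC treatment labels give 3 days of recovery, whereas the title of the SKOV3 PGCC library gives day 7. Daughter cells had the same exposure and 30 days of recovery, and the titles of both daughter libraries name clone 1, so each stands for 1 outgrowth. Hey was grown in MEM Eagle and SKOV3 in RPMI-1640, so that line and medium cannot be told apart. In bulk RNA, fewer cells of a type and less RNA per cell cannot be told apart either.

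Glycolysis splits glucose into pyruvate. Glucose enters through facilitative transporters, hexokinase traps it, phosphofructokinase commits it to breakdown, and pyruvate kinase yields pyruvate. Lactate dehydrogenase can turn pyruvate into lactate, which leaves the cell through monocarboxylate transporters. The hypoxia-inducible factors HIF-1 and HIF-2 are degraded in the presence of oxygen. When oxygen is low they raise most of the glycolytic genes together with genes for blood vessel growth, pH control and mitophagy. Many cancer cells keep glycolysis high in the presence of oxygen.

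The deposited columns summed to between 911825 and 920497 TPM. Genes of the mitochondrial genome took 2.64%, 12.3% and 7.60% of TPM in Hey parental cells, PGCCs and daughter cells, and 9.17%, 7.37% and 14.8% in SKOV3, and leaving them out shifted the median over all genes in Hey PGCCs against parental cells from 0.0 to 0.11 on the log2 scale. Of 9 epithelial cancer markers, PAX8, KRT7, KRT8 and KRT18 were at 54.7 TPM or above in all 6 libraries. KRT19 and MSLN were lower in daughter cells than in parental cells of both lines, as was EPCAM in SKOV3. Of all genes tested, 3.73% were lower there in Hey and 6.34% in SKOV3. KRT7 was higher in Hey daughter cells (6.31% of all genes) and WFDC2 in SKOV3 daughter cells (15.1%). The summed level of the 9 epithelial cancer markers was 1440, 1114 and 2038 TPM in the Hey states and 1510, 3343 and 1429 TPM in the SKOV3 states. Of the 8 tested, 5 were higher in SKOV3 PGCCs than in parental cells (median change 1.10), where 9.94% of all genes tested were. None was higher in Hey PGCCs (7.67% of all genes). The 3 mesenchymal markers VIM, CDH2 and FN1 summed to 8134, 6625 and 4894 TPM in Hey and to 2956, 2051 and 989.3 TPM in SKOV3. All 3 were lower in SKOV3 daughter cells than in SKOV3 parental cells and PGCCs (6.34% and 9.25% of all genes tested were). EPCAM lay at or below 1.43 TPM in the Hey libraries and between 8.15 and 68.8 TPM in the SKOV3 libraries. The leukocyte marker CD3E and the red cell markers HBB and ALAS2 were listed at 0 in all 6, while CD68 reached 69.3 TPM in Hey. The red cell marker HBA1 was 0.226 TPM in Hey PGCCs and 1.42 TPM in SKOV3 PGCCs and listed at 0 in the other 4 libraries. The endothelial marker CDH5 lay between 33.2 and 48.5 TPM in Hey and reached 2.56 TPM in SKOV3, whereas PECAM1 and VWF stayed at or below 0.315 TPM. The 4 fibroblast markers summed to at most 11.3 TPM. The summed level of 6 dividing-cell markers was 816.5, 172.2 and 1084 TPM in Hey parental cells, PGCCs and daughter cells and 1896, 986.8 and 1034 TPM in SKOV3. All 6 of these markers were lower in Hey PGCCs than in parental cells (5.22% of all genes tested were) and 2 of 6 (TOP2A and CDK1) in SKOV3 PGCCs (4.96%). The part of these markers in the results given here was not tested.

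A gene was tested where its mean TPM over the 6 libraries was at least 1. This held for 14988 genes of the table and for 30 of the 32 genes described here. CA9, a carbonic anhydrase that regulates pH at the cell surface, was listed at 0 in the 3 Hey libraries and was 1.52, 0.907 and 0.113 TPM in SKOV3 parental cells, PGCCs and daughter cells. EGLN3, a prolyl hydroxylase that marks HIF subunits for degradation, reached 1.41 TPM at most. Changes are differences of log2(TPM + 1), which understate the change of genes with low TPM. A gene was called higher or lower where this difference reached 1, which is a 2-fold change. Single libraries were compared without a p-value.

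Levels of the glycolytic genes ranged from 0.201 TPM (ALDOC in Hey parental cells) to 5699.5 TPM (GAPDH in Hey parental cells). The 17 glycolysis and lactate dehydrogenase genes from HK1 to LDHB together took 1.32%, 1.02% and 1.22% of TPM in Hey parental cells, PGCCs and daughter cells. In SKOV3 they took 1.29%, 1.64% and 1.05%. PGCCs thus had the lowest share in Hey and the highest in SKOV3, and the shares without GAPDH had the same order in both lines (0.699%, 0.520% and 0.686% in Hey, 1.03%, 1.24% and 0.862% in SKOV3). The glycolytic enzyme GAPDH made up between 43.9% and 49.0% of the summed TPM of these genes in Hey and between 17.7% and 24.2% in SKOV3.

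**Figure D1:**
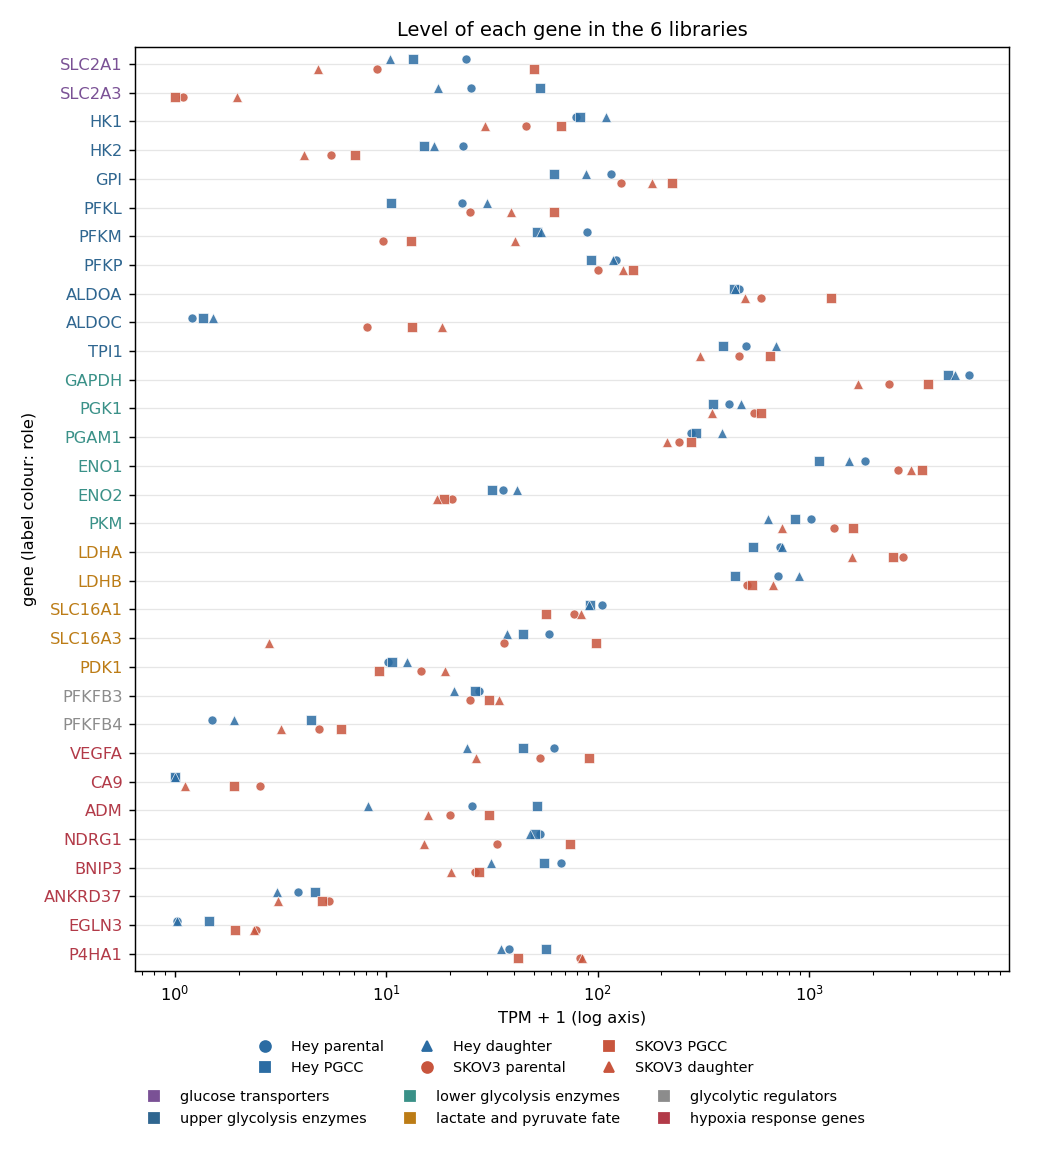
Level of each of the 32 genes in the 6 libraries, as TPM + 1 on a log axis. Blue symbols are Hey and red symbols SKOV3, with circles for parental cells, squares for PGCCs and triangles for daughter cells, 1 library each. GAPDH is the most abundant of these genes in all 3 Hey libraries, CA9 sits at 0 TPM in Hey, and SLC2A3 lies at 16.6 TPM or above in Hey and below 1 TPM in SKOV3.

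Parental Hey and parental SKOV3 cells differed in which isozymes were abundant. Of the 30 genes tested, 6 were higher in parental Hey than in parental SKOV3 (20.0% of them, against 11.5% of all genes tested) and 4 were lower (13.3%, against 24.2% of all genes). Their median difference was 0.21, beside −0.29 over all genes. SLC2A3 (GLUT3, a high-affinity glucose transporter) was 24.0 TPM in Hey and 0.0885 TPM in SKOV3. SLC2A1 (GLUT1, the widespread basal glucose transporter) was 22.7 and 7.98 TPM. Hey had both transporters at similar levels, whereas SKOV3 had almost only SLC2A1.

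The phosphofructokinase subunit PFKM was 88.3 TPM in parental Hey and 8.66 TPM in parental SKOV3, and hexokinase HK2 was 22.2 and 4.45 TPM. GAPDH was 5699.5 and 2381 TPM. The mitophagy receptor BNIP3 was 65.8 and 25.4 TPM, but copies of this gene elsewhere in the genome are listed separately and their summed TPM came to as much as 33.5% of that of BNIP3 in 1 library, so its level is uncertain. Each of these genes was at least 2-fold higher in Hey.

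LDHA, the lactate dehydrogenase subunit that favours lactate formation, was 722.3 TPM in parental Hey and 2776 TPM in parental SKOV3. Aldolase ALDOC was 0.201 and 7.08 TPM, the flux regulator PFKFB4 0.496 and 3.78 TPM, and P4HA1, a collagen prolyl hydroxylase subunit, 36.9 and 81.4 TPM. These were the 4 genes lower in Hey. Dividing by median ratios moved the median difference of all genes from −0.29 to −0.01, and with this scaling HK1, ENO2 and SLC16A3 also passed 2-fold in the higher direction and P4HA1 no longer did in the lower. With quantile normalization GAPDH was no longer past 2-fold.

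Promoter sequences are shown for 4 genes whose levels set the states or lines apart: SLC2A1 and SLC16A3, which peaked in SKOV3 PGCCs, ADM, which was highest in PGCCs of both lines, and PFKL, which changed in opposite directions. The windows run from 250 bases before to 50 bases after the start site in RefSeq on GRCh38.p14, given on the strand of the gene. Capitals mark matches to the core of the hypoxia response element, searched as ACGTG and GCGTG on both strands, the first of which is also part of the E-box CACGTG. The windows are chr1:42958819-42959118 (minus strand) for SLC2A1, chr17:82228792-82229091 (plus) for SLC16A3, chr11:10304823-10305122 (plus) for ADM and chr21:44299803-44300102 (plus) for PFKL.
SLC2A1: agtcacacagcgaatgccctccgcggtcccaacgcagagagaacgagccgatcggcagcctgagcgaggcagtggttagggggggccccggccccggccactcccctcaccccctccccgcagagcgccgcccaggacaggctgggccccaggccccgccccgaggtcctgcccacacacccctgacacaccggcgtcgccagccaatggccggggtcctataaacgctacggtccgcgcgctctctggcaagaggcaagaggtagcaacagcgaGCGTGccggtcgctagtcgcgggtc
SLC16A3: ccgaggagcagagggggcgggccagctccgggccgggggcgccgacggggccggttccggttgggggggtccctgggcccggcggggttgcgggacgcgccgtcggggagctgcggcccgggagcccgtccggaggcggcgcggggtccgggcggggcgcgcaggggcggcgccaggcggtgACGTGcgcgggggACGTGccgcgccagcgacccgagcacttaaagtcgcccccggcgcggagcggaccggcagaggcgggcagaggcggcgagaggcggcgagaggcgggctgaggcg
ADM: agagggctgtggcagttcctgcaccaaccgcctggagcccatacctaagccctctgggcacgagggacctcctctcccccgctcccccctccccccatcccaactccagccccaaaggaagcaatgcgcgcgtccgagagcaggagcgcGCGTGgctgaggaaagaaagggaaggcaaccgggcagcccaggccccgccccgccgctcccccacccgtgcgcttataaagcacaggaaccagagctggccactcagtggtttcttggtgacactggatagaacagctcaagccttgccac
PFKL: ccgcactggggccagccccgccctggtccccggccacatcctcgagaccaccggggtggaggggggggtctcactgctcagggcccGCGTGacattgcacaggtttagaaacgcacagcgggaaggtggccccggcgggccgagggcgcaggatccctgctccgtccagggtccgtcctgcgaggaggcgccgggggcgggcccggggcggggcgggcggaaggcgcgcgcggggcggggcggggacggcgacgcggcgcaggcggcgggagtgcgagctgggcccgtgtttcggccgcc
SLC2A1, ADM and PFKL each have 1 match and the SLC16A3 window shown has 2. It is the second of 5 windows listed for SLC16A3 and was chosen because it holds matches, whereas the first window listed has none. A RefSeq promoter was used for 28 of the 32 genes. Of the 28, 20 (71.4%) hold at least 1 match in the first window listed, against 13213 of 27305 promoters in all (48.4%). By its first window SLC16A3 counts among the genes without a match. A match is a run of letters and no evidence of binding. No window was used for VEGFA, NDRG1, SLC2A3 and SLC16A1, so the share of 71.4% leaves these genes out. Whether they hold a match was not tested.

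In the GRCh38 annotation of GENCODE 44, SLC2A1 lies at chr1:42925353-42958893 on the minus strand and has 10 exons in its canonical transcript, and SLC16A3 lies at chr17:82217934-82261129 on the plus strand with 5 exons. ADM is at chr11:10305073-10307397 (plus, 4 exons), VEGFA at chr6:43770184-43786487 (plus, 8 exons) and PFKL at chr21:44300051-44327376 (plus, 22 exons).

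From parental cells to PGCCs, most of the genes differed in sign between the lines, a difference that was not tested. In Hey, 3 of 30 genes were higher than in parental cells (10.0%, against 7.67% of all genes tested) and 1 was lower (3.33%, against 5.22%). In SKOV3, 5 were higher (16.7%, against 9.94%) and none was lower (against 4.96%). None of the 30 genes passed 2-fold in the same direction in both lines, where 1.67% of all genes did, so this count is near the background. Of the 30 genes, 18 were below 0 in Hey and above 0 in SKOV3, where 3722 of all 14988 genes were. The median change of the genes was −0.25 in Hey and 0.38 in SKOV3, beside 0.0 and 0.02 over all genes.

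**Figure D2:**
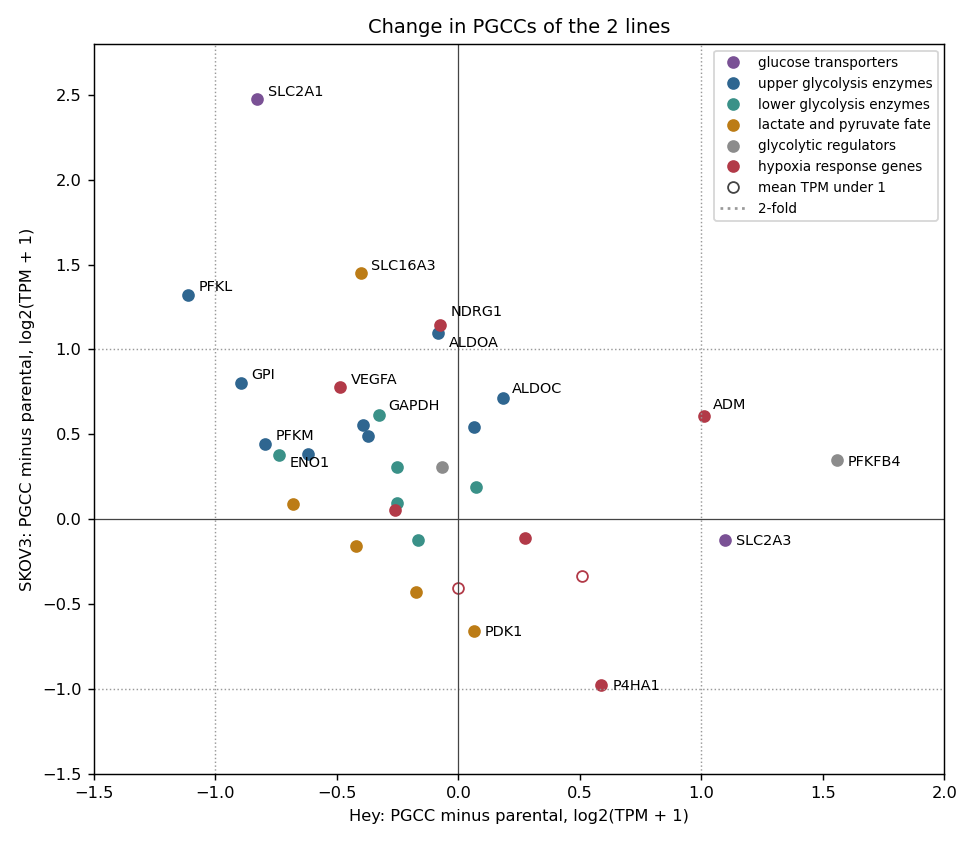
Change of each of the 32 genes from parental cells to PGCCs in Hey (horizontal) and in SKOV3 (vertical), as differences of log2(TPM + 1), with dotted lines at 2-fold and open circles for the genes with a mean TPM under 1. Most points lie in the upper left, lower in Hey PGCCs and higher in SKOV3 PGCCs. PFKL lies past 2-fold on opposite sides, at −1.11 and 1.32.

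SLC2A1 had the largest change in SKOV3 PGCCs. It was 7.98 TPM in SKOV3 parental cells, 48.9 TPM in PGCCs and 3.74 TPM in daughter cells. In Hey it was 22.7, 12.4 and 9.36 TPM. The SKOV3 PGCC library thus stood above the other 5 libraries, and SLC2A1, whose promoter window holds 1 match, was 5.56-fold higher in SKOV3 PGCCs than in parental cells (2.47 on the log2 scale), while in Hey the difference was −0.83.

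In Hey, SLC2A3 was the transporter that was higher in PGCCs. It was 24.0 TPM in parental cells, 52.5 TPM in PGCCs and 16.6 TPM in daughter cells, 2.14-fold higher in PGCCs than in parental cells and 3.04-fold lower in daughter cells than in PGCCs. In SKOV3 it was 0.0885 TPM, listed at 0 and 0.958 TPM. The listed copies of SLC2A3 summed to 3.01 TPM in the SKOV3 PGCC library and to under 0.1 TPM in the other 5, so reads of the gene and its copies there cannot be told apart. Of the summed TPM of both transporters, SLC2A1 held 48.6%, 19.1% and 36.1% in the 3 Hey states and 98.9%, all and 79.6% in SKOV3.

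The upper glycolysis enzymes showed the split between the lines in PFKL, the liver-type phosphofructokinase subunit. PFKL was 21.8 TPM in Hey parental cells, 9.54 TPM in PGCCs and 28.8 TPM in daughter cells, and 23.8, 61.0 and 37.8 TPM in the SKOV3 states. PGCCs were lowest in Hey, 2.16-fold below parental cells, and highest in SKOV3, 2.50-fold above them. Hey daughter cells were 2.83-fold above PGCCs. Leaving out the mitochondrial genes or quantile normalization brought the Hey PGCC change of PFKL under 2-fold.

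ALDOA, the main aldolase, was 590.5 TPM in SKOV3 parental cells, 1265.5 TPM in PGCCs and 495.3 TPM in daughter cells. In Hey it was 466.8, 439.6 and 444.7 TPM. ALDOA was 2.14-fold higher in SKOV3 PGCCs than in parental cells and differed little among the Hey states. The other 7 upper enzymes did not pass 2-fold in PGCCs of either line. GPI, which isomerizes glucose 6-phosphate, came closest to opposite calls, with −0.90 in Hey and 0.80 in SKOV3. The changes of HK1, HK2, PFKM, PFKP, ALDOC and TPI1 ranged from −0.80 to 0.18 in Hey PGCCs and from 0.39 to 0.71 in SKOV3 PGCCs.

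None of the 6 lower glycolysis enzymes passed 2-fold in PGCCs against parental cells. Of all genes tested, 7.67% were higher and 5.22% lower there in Hey, and 9.94% and 4.96% in SKOV3. The median change of the 6 enzymes was −0.25 in Hey and 0.25 in SKOV3. GAPDH was 5699.5, 4549 and 4897 TPM in Hey parental cells, PGCCs and daughter cells and 2381, 3639 and 1691 TPM in SKOV3. Across the 6 libraries GAPDH ranged over 1.75 on the log2 scale, the second widest range among 13 genes often used as expression references, where YWHAZ had the narrowest range (0.45) and RPL13A the widest (2.28). PGK1, another reference of that list, ranged over 0.76.

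ENO1, the main enolase, was 1843 TPM in Hey parental cells, 1105 TPM in PGCCs and 1539 TPM in daughter cells, and 2623, 3415 and 3043 TPM in the SKOV3 states. PKM, pyruvate kinase, was 1014.5, 851.4 and 638.3 TPM in Hey and 1302, 1611 and 744.5 TPM in SKOV3, lowest in the daughter cells of both lines. PGK1, PGAM1 and ENO2 changed by between −0.25 and 0.07 in Hey PGCCs and between −0.12 and 0.19 in SKOV3 PGCCs.

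SLC16A3 (MCT4, the transporter linked to lactate release) was the second gene with a high value in SKOV3 PGCCs. It was 34.9 TPM in SKOV3 parental cells, 97.0 TPM in PGCCs and 1.77 TPM in daughter cells, and 57.8, 43.4 and 36.0 TPM in the Hey states. It was 2.73-fold higher in SKOV3 PGCCs than in parental cells and 35.4-fold lower in SKOV3 daughter cells than in PGCCs. SLC16A3 took 31.5%, 63.4% and 2.11% of the summed TPM of SLC16A3 and SLC16A1 in the SKOV3 states, and 35.9%, 32.3% and 28.6% in Hey. Exons of SLC16A3 overlap CSNK1D on the opposite strand, and whether strand was used in quantification is not given in the sources used here.

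SLC16A1 (MCT1, a carrier of lactate and pyruvate in both directions) lay between 56.0 and 103.1 TPM in all 6 libraries. LDHA was 722.3, 539.2 and 739.1 TPM in Hey parental cells, PGCCs and daughter cells and 2776, 2487 and 1594 TPM in SKOV3. LDHB, the subunit that favours pyruvate, was 709.7, 442.7 and 894.5 TPM in Hey and 505.3, 537.7 and 671.6 TPM in SKOV3. LDHA and LDHB were nearly equal in Hey, where LDHA held between 45.2% and 54.9% of their sum. In the SKOV3 states LDHA held 84.6%, 82.2% and 70.4%. PDK1, a kinase that closes pyruvate dehydrogenase, was 9.17, 9.62 and 11.5 TPM in Hey and 13.5, 8.20 and 17.9 TPM in SKOV3.

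**Figure D3:**
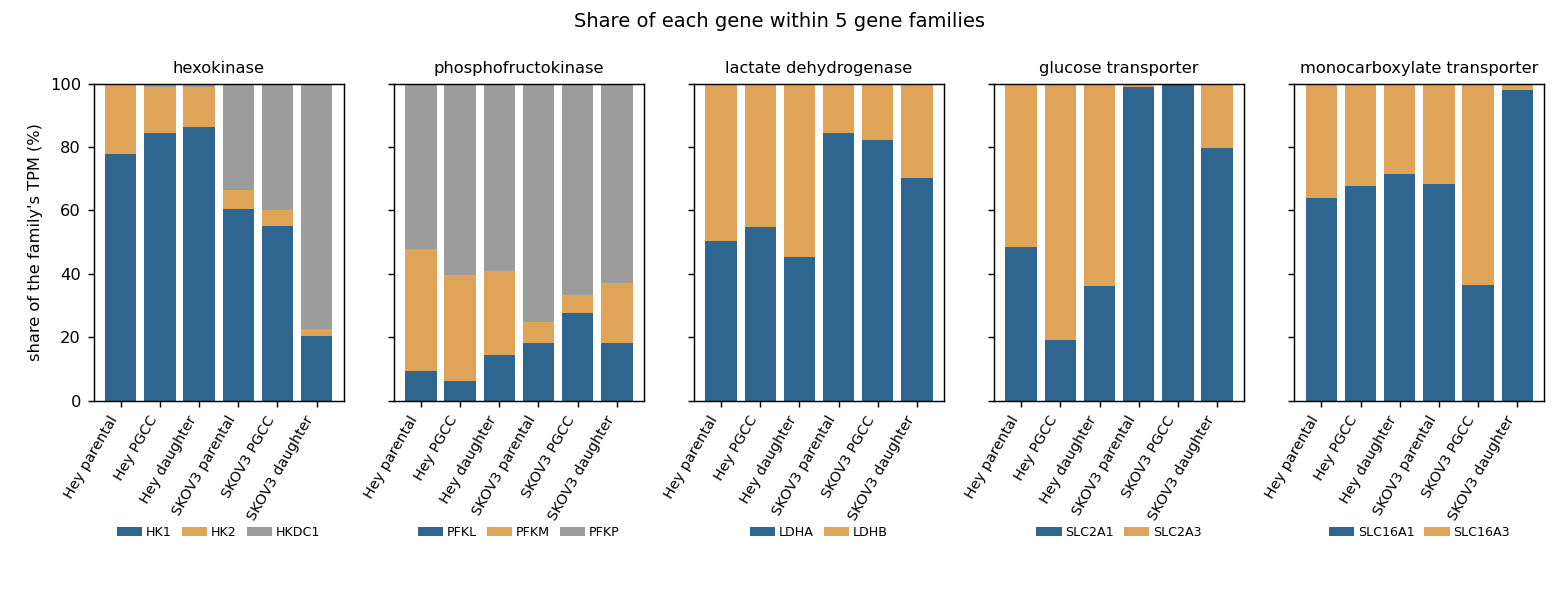
Share of each gene in the summed TPM of 5 gene families, in percent, with 1 bar per library. Hexokinases, phosphofructokinase subunits, lactate dehydrogenase subunits, the glucose transporters SLC2A1 and SLC2A3, and the monocarboxylate transporters SLC16A1 and SLC16A3 are shown. SLC16A3 takes 63.4% of its pair in SKOV3 PGCCs and 2.11% in SKOV3 daughter cells, and HKDC1 takes 77.4% of the hexokinases in SKOV3 daughter cells.

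Of the regulators, PFKFB4, an enzyme that makes and removes the phosphofructokinase activator fructose 2,6-bisphosphate, was 0.496 TPM in Hey parental cells, 3.41 TPM in PGCCs and 0.908 TPM in daughter cells. It was 3.78, 5.09 and 2.17 TPM in the SKOV3 states. PGCCs had the highest value in each line, and the difference to parental cells passed 2-fold in Hey (2.95-fold) and not in SKOV3 (0.35 on the log2 scale). PFKFB3, its relative with stronger kinase activity, lay between 19.8 and 33.1 TPM throughout.

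Among the hypoxia response genes, ADM, which encodes the vasodilator peptide adrenomedullin, was highest in PGCCs of both lines. ADM was 24.5 TPM in Hey parental cells, 50.4 TPM in PGCCs and 7.22 TPM in daughter cells, and 19.0, 29.5 and 14.8 TPM in the SKOV3 states. It was 2.02-fold higher in Hey PGCCs than in parental cells, a change that fell under 2-fold with median-ratio scaling and with the GC and length trend removed, and 0.61 on the log2 scale higher in SKOV3 PGCCs. Hey daughter cells were 6.25-fold below PGCCs.

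NDRG1, a stress response gene raised by hypoxia, was 52.3, 49.5 and 46.9 TPM in the 3 Hey states and 32.4, 72.9 and 14.1 TPM in the SKOV3 states. It was level in Hey, while SKOV3 PGCCs were 2.21-fold above parental cells and daughter cells 2.21-fold below them. VEGFA, the main growth factor for blood vessels, was 61.1, 43.2 and 23.1 TPM in Hey and 52.2, 90.3 and 25.5 TPM in SKOV3. Its change in PGCCs was −0.49 in Hey and 0.78 in SKOV3, and daughter cells were lowest in both lines.

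P4HA1 was 36.9, 55.9 and 33.7 TPM in Hey parental cells, PGCCs and daughter cells and 81.4, 40.9 and 82.8 TPM in SKOV3. It thus ran against most of the other genes, higher in Hey PGCCs (0.59) and lower in SKOV3 PGCCs (−0.97), neither past 2-fold. With median-ratio scaling or without mitochondrial genes the SKOV3 change of P4HA1 did pass it. BNIP3 and ANKRD37, an ankyrin repeat gene induced by HIF-1, changed by −0.26 and 0.27 in Hey PGCCs and by 0.05 and −0.11 in SKOV3 PGCCs.

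The changes in SKOV3 PGCCs followed the base composition of the transcripts. Across 13468 of the 14988 genes with a GC content in GENCODE 44, the change from SKOV3 parental cells to PGCCs had a Spearman correlation of 0.72 with GC content, and over the 30 genes described here it was also 0.72. The points come from the same pair of libraries and are not independent. In Hey the values were −0.04 and −0.06. The 30 genes had a median GC content of 53.6%, against 47.7% for all genes tested.

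SLC16A3, PFKL and ALDOA had GC contents of 64.7%, 63.4% and 60.5%, and P4HA1, the lowest of the 30 in SKOV3 PGCCs, had 39.7%. With a smooth trend in GC content and transcript length subtracted, SLC2A1 remained past 2-fold in SKOV3 PGCCs (2.13), and it was the 1 gene of the 5 that did. NDRG1 then changed by 0.70, SLC16A3 by 0.47, PFKL by 0.39 and ALDOA by 0.32, and the median of the 30 genes was 0.15. Whether the trend arose in the libraries or in the cells was not tested. In Hey PGCCs, SLC2A3, PFKFB4 and PFKL passed 2-fold with the trend removed as well.

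**Figure D4:**
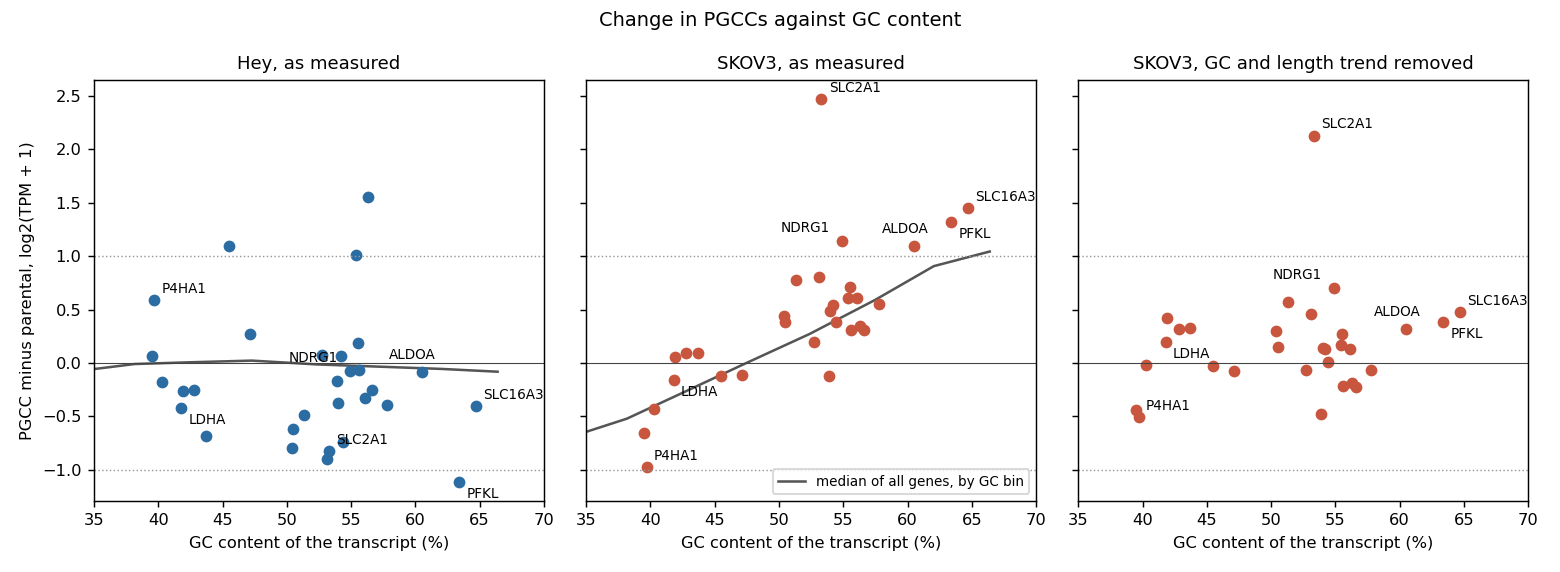
Change from parental cells to PGCCs, as a difference of log2(TPM + 1), against the GC content of the transcript in percent, for the 30 genes tested. The left panel shows Hey, the middle panel SKOV3 and the right panel SKOV3 with the trend in GC content and length removed. The grey line is the median of all genes in 8 bins of GC content. In SKOV3 the points climb along the line, and in the right panel SLC2A1 alone lies above 2-fold.

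Against parental cells, most of the calls in daughter cells were in the lower direction in Hey, and hypoxia response genes were among them in both lines. In Hey, none of the 30 genes was higher in daughter cells than in parental cells (against 6.31% of all genes) and 4 were lower (13.3%, against 3.73%). In SKOV3, 2 were higher (6.67%, against 15.1%) and 3 were lower (10.0%, against 6.34%). The median change was −0.17 in Hey and −0.30 in SKOV3, beside 0.05 and 0.15 over all genes. Of the 6 hypoxia response genes tested, 3 were lower in Hey daughter cells and 2 in SKOV3 daughter cells, and none was higher in either line.

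VEGFA was the only one of the 30 genes that was at least 2-fold lower in daughter cells than in parental cells of both lines, 2.58-fold in Hey and 2.01-fold in SKOV3. Of all genes tested, 0.387% were lower in both lines. The SKOV3 value lay just past the threshold and fell short of it, at −0.92, when mitochondrial genes were left out. In Hey, ADM was 3.10-fold lower, SLC2A1 2.29-fold and BNIP3 2.15-fold. BNIP3 was 65.8, 54.7 and 30.1 TPM in the Hey states and 25.4, 26.4 and 19.2 TPM in SKOV3, where it did not pass 2-fold.

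In SKOV3 daughter cells, SLC16A3 was 13.0-fold lower than in parental cells and NDRG1 2.21-fold. SLC2A1 came close, at −0.92. PFKM was the main gene in the opposite direction. It was 8.66 TPM in SKOV3 parental cells, 12.1 TPM in PGCCs and 39.8 TPM in daughter cells, 4.22-fold above parental cells, whereas in Hey it was 88.3, 50.4 and 52.7 TPM, highest in parental cells. The brain-type aldolase ALDOC was 7.08, 12.3 and 17.3 TPM in the SKOV3 states and at most 0.519 TPM in Hey. All 5 calls of SKOV3 daughter cells against parental cells kept 2-fold with the GC and length trend removed, and ALDOC lost it with median-ratio scaling and quantile normalization.

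**Figure D5:**
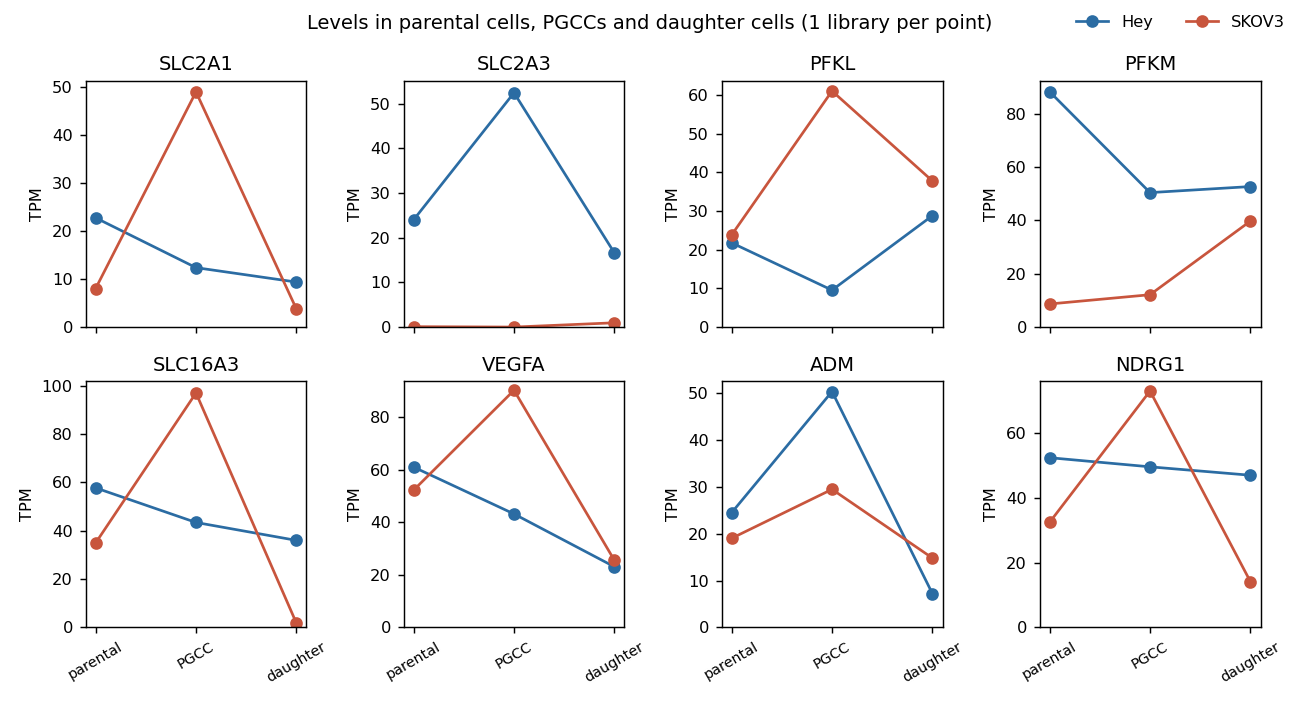
TPM of 8 genes in the parental, PGCC and daughter libraries of Hey (blue) and SKOV3 (red), 1 library per point, with each vertical axis starting at 0. SLC2A1, SLC16A3, VEGFA and NDRG1 peak in SKOV3 PGCCs, ADM peaks in PGCCs of both lines, and PFKM rises to 39.8 TPM in SKOV3 daughter cells. Lines join the states for reading and are not a time course of the same cells.

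Daughter cells were also compared with PGCCs, a comparison that shares its daughter libraries with the one against parental cells and its PGCC libraries with the one of PGCCs against parental cells. In Hey, 2 of 30 genes were higher in daughter cells than in PGCCs (6.67%, against 9.95% of all genes) and 3 were lower (10.0%, against 8.13%). In SKOV3, 2 were higher (6.67%, against 14.6%) and 9 were lower (30.0%, against 9.25%). The median change was 0.08 in Hey and −0.66 in SKOV3, beside 0.03 and 0.12 over all genes.

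The genes lower in SKOV3 daughter cells than in PGCCs included 3 of the 9 upper and 2 of the 6 lower glycolysis enzymes. The 9 genes were the transporter SLC2A1 (10.5-fold), the enzymes HK1 (2.29-fold), ALDOA (2.55-fold), TPI1 (2.15-fold), GAPDH (2.15-fold) and PKM (2.16-fold), the lactate exporter SLC16A3 (35.4-fold), and VEGFA (3.44-fold) and NDRG1 (4.89-fold). HK1 was 44.8, 65.7 and 28.1 TPM in the SKOV3 states, and TPI1, triose phosphate isomerase, was 464.0, 652.5 and 303.6 TPM. With the GC and length trend removed, SLC2A1, SLC16A3, VEGFA and NDRG1 kept 2-fold and the other 5 did not. Without mitochondrial genes TPI1, GAPDH and PKM also fell short of it. The Spearman correlation with GC content in this comparison was −0.45 over all genes and −0.51 over the 30 genes.

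The genes higher in SKOV3 daughter cells than in PGCCs were PFKM (3.10-fold) and PDK1 (2.05-fold). In Hey daughter cells PFKL and LDHB were higher than in PGCCs, the latter by 2.02-fold and under 2-fold with each of the 3 other scalings, and SLC2A3, PFKFB4 and ADM were lower. None of the 30 passed 2-fold in the same direction in both lines in this comparison, near the 2.29% of all genes that did. ADM and VEGFA came closest. The ADM change was −2.64 in Hey and −0.95 in SKOV3. For VEGFA it was −0.88 and −1.78.

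As a second approach, limma was fitted to log2(TPM + 1) of all 14988 genes with state and cell line as terms. The disagreement between the lines served as the error, with 2 residual degrees of freedom per gene. This error was then drawn toward a trend over all genes, so the p-values rest on more than a gene's own 2 degrees of freedom. None of the 30 genes had an adjusted p under 0.05 in any comparison. Over all genes, limma called 0.0200% in PGCCs against parental cells, 0.0133% in daughter cells against parental cells and 0.00% in daughter cells against PGCCs. At an unadjusted p under 0.05, limma gave 0 of the 30 genes in PGCCs against parental cells (where 2.73% of all genes were past that p in either direction), 1 in daughter cells against parental cells (VEGFA, lower, or 3.33%, where 0.961% of all genes were lower) and 4 in daughter cells against PGCCs, all lower (13.3%, where 1.98% of all genes were lower at that p). In this last comparison 1 gene was lower at that p without the SKOV3 PGCC library (2.07% of all genes) and 1 without the SKOV3 daughter library (2.58%), 2 without the Hey daughter library (3.69%) and 6 without the Hey PGCC library (2.35%).

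These 4 genes were ADM, VEGFA, SLC16A3 and SLC2A1. In daughter cells against PGCCs, limma's mean change over the lines was −1.80 (SE 0.494) for ADM and −1.33 (SE 0.429) for VEGFA. It was −2.70 (SE 0.979) for SLC16A3 and −1.88 (SE 0.778) for SLC2A1. The limma adjusted p was 0.908 for each of them. The direction was the same in both lines, but the genes were picked by a p that favours such agreement, so it is no separate support. The changes in Hey and SKOV3 were −0.26 and −5.14 for SLC16A3 and −0.37 and −3.40 for SLC2A1. They were −2.64 and −0.95 for ADM and −0.88 and −1.78 for VEGFA.

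The range of each gene over the 6 libraries had a median of 1.74 on the log2 scale for the 30 genes, beside 1.61 for all genes tested. PFKP, the platelet-type phosphofructokinase subunit, was the steadiest of the 30 with a range of 0.67, and SLC2A3 the most variable with 5.74. SKOV3 PGCCs had the highest value of the 6 libraries for 12 of the 30 genes, a library that is highest for 22.1% of all genes tested. SKOV3 daughter cells had the lowest value for 11 of the 30 and for 10.5% of all genes.

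Other genes of the same biology were taken from lists. HIF1A, the oxygen-regulated subunit of HIF-1, was 90.6, 164.9 and 86.7 TPM in the Hey states and 506.9, 420.4 and 347.3 TPM in SKOV3, with no change past 2-fold between the states of a line. EPAS1, which encodes HIF-2α, was 16.9, 40.8 and 23.6 TPM in Hey and 10.1, 21.1 and 3.05 TPM in SKOV3. PGCCs had the highest EPAS1 value in both lines, 1.22 above parental cells on the log2 scale in Hey and 0.99 in SKOV3, just short of 2-fold. EPAS1 was chosen for this text after its values were seen. Of 13 tested HIF subunit and oxygen-sensing genes, 2 were higher in Hey PGCCs than in parental cells (7.67% of all genes were) and none in SKOV3 PGCCs (9.94%).

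Of 23 tested further genes known to be induced by hypoxia, 4 were higher and 1 lower in Hey PGCCs than in parental cells (7.67% and 5.22% of all genes), and 4 were higher and 2 lower in SKOV3 PGCCs (9.94% and 4.96%), with no gene called in the same direction in both. In daughter cells against PGCCs, 4 were lower and none higher in Hey (8.13% and 9.95% of all genes), and 8 were lower and 1 higher in SKOV3 (9.25% and 14.6%). CA12, a cell surface carbonic anhydrase, was the 1 gene of that list lower in daughter cells than in PGCCs of both lines (−1.02 and −1.65), at 0.987, 3.10 and 1.02 TPM in the Hey states and 21.8, 17.9 and 5.03 TPM in SKOV3.

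Glucose can also enter through SLC2A6 (GLUT6), which was higher in PGCCs than in parental cells of both lines, by 1.15 in Hey and 1.36 in SKOV3. Its level stayed between 1.22 and 4.75 TPM. It was 1 of 7 tested genes of other glucose and lactate carriers, and 125 of all 14988 genes tested were higher in PGCCs of both lines. SLC2A6 was also called higher in SKOV3 daughter cells than in parental cells (15.1% of all genes were). Its change with the GC and length trend removed is not given. Basigin (BSG), the chaperone that brings SLC16A1 and SLC16A3 to the membrane, was 120.6, 181.2 and 187.5 TPM in Hey and 309.4, 549.4 and 240.4 TPM in SKOV3, lower in SKOV3 daughter cells than in PGCCs by 1.19. HKDC1, a hexokinase relative, was 24.7, 47.6 and 106.8 TPM in the SKOV3 states and at most 1.13 TPM in Hey, and its share of the summed hexokinases HK1, HK2 and HKDC1 in SKOV3 was 33.4%, 39.9% and 77.4%.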

How the data were processed

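The deposited table holds 1 TPM value per gene symbol for each of 6 libraries. Per the labels, the authors trimmed reads with fastp and quantified them on the human transcriptome (hg38) with Salmon 0.14.1, and then deposited the TPM values. The annotation release, strand and bias settings are not given in the sources used here. The study's methods give a sequencing depth and a range of mapped reads for the series as a whole, whereas the reads behind each TPM value cannot be read from the table, so no counting error was computed.

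The 32 genes were taken by symbol, and the genes and lists were chosen with earlier results of these data known. Differences of log2(TPM + 1) were computed for genes whose mean TPM reached 1, with a call at 2-fold and no p-value for single libraries. The named genes are all 32, plus list genes called in the same direction in PGCCs against parental cells, or daughter cells against PGCCs, of both lines, and up to 4 genes per list with the highest mean TPM, and the markers, except 1 list gene that is not reported here. In limma 3.58.1 (R 4.3.3), state and cell line were fitted with an intensity trend, and p-values were adjusted over all genes by Benjamini-Hochberg. The lines are different cells and no replicates, so limma's p-values set each change against the disagreement between the lines. The error of each gene was moderated by that of all genes.

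Alternatives were a pseudocount of 0.1, all genes with a TPM above 0, a mean TPM of at least 5, median-ratio scaling, quantile normalization, removal of mitochondrial genes, a 1.5-fold threshold, and removal of a lowess trend (fraction 0.3, 2 passes) in GC content and transcript length from GENCODE 44, which gave values for 13468 of 14988 genes. For limma they were no cell line term, the pseudocount of 0.1, all genes, median-ratio scaling, no intensity trend, and leaving out each library. Python 3.11.15 with pandas 2.3.3, scipy 1.17.1 and statsmodels 0.14.6 was used, and the steps were tested on simulated data. In these the changed genes changed alike in PGCCs of both lines, so limma was not tested under the disagreement between lines seen here.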

Additional observations from a re-analysis of the deposited data

Results flagged for a closer look

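For 9 pairs of changes, a gene moved one way in Hey and the opposite way in SKOV3 with 1 library per state in each line. The difference between the lines was not tested in any of them. From parental cells to PGCCs, on the log2(TPM + 1) scale, SLC2A1 changed by −0.83 in Hey and 2.47 in SKOV3. PFKL changed by −1.11 and 1.32, and GPI by −0.90 and 0.80. P4HA1 had the reverse signs, 0.59 in Hey and −0.97 in SKOV3. In daughter cells against parental cells, PFKM changed by −0.73 in Hey and 2.08 in SKOV3.

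In daughter cells against PGCCs, SLC2A3 changed by −1.604 in Hey and 0.97 in SKOV3, where its level did not reach 1 TPM. PFKL changed by 1.499 and −0.68, TPI1 by 0.84 and −1.10, and P4HA1 by −0.71 and 0.999. After removal of the GC and length trend, the SKOV3 changes of PFKL and GPI in PGCCs and of PFKL in daughter cells against PGCCs were smaller or turned. PFKL then changed by 0.39 in SKOV3 PGCCs. In SKOV3 daughter cells against PGCCs it turned from −0.68 to 0.09, and in Hey it remained at 1.39, so both lines then had the same sign.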

How the results depend on the processing

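With 1 library per state, none of the counts has a replicate error, and TPM values give no depth per gene. Over the 7 comparisons and all alternatives, 1649 values of single genes kept their side of the threshold, 98 counted as newly past it and 31 lost it. The 98 include values that passed only the lower threshold of 1.5-fold. They also include unchanged values of CA9 and EGLN3, which failed the TPM filter and so could not count as called before. No called change turned sign, whereas some changes under the threshold did. With the GC and length trend removed, for example, PKM in SKOV3 PGCCs against parental cells turned from 0.31 to −0.22. A block on replicate numbers could not be fitted because each group has 1 library, while the cell line term of limma pairs the states of a line.

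Counts of the genes are given with the share of all genes called under the same setting in parentheses. In Hey PGCCs against parental cells, 0 were lower after quantile normalization (5.80%) or without mitochondrial genes (3.95%) and 7 at 1.5-fold (14.4%). In Hey daughter cells against parental cells, 1 was higher with the pseudocount of 0.1 (10.9%) and 7 were lower at 1.5-fold (10.7%). In Hey daughter cells against PGCCs, 1 was higher with median-ratio scaling (9.25%), quantile normalization (8.83%) or no mitochondrial genes (8.99%). There, 5 were lower after quantile normalization (8.80%), which turned the median to −0.051, and 7 at 1.5-fold (17.2%). In SKOV3 PGCCs against parental cells, 10 were higher at 1.5-fold (22.9%) and 1 with the GC and length trend removed (2.06%), while 1 was lower with median-ratio scaling (5.84%) or no mitochondrial genes (5.58%) and 2 at 1.5-fold (16.3%). In SKOV3 daughter cells against parental cells, 1 was higher with median-ratio scaling (11.3%) or quantile normalization (10.5%) and 4 at 1.5-fold (28.1%), while 5 were lower with the pseudocount of 0.1 (8.23%), 6 with median-ratio scaling (8.34%) or quantile normalization (9.50%) and 11 at 1.5-fold (13.6%). In SKOV3 daughter cells against PGCCs, 4 were higher with the pseudocount of 0.1 (18.3%), at 1.5-fold (28.0%) or without mitochondrial genes (17.8%) and 1 with median-ratio scaling (11.4%), quantile normalization (11.7%) or the trend removed (14.4%), while 16 were lower at 1.5-fold (18.7%) and 4 with the trend removed (4.89%). Between the parental lines 10 were higher at 1.5-fold (18.5%). The cause of these shifts was not tested.

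The share of higher genes among all called genes moved with the setting. In Hey PGCCs against parental cells it was 59.5%, and 45.3% at a mean TPM of at least 5, 48.2% with the trend removed, 51.8% after quantile normalization and 71.1% without mitochondrial genes. Over the alternatives it ranged from 50.6% to 68.7% in Hey daughter cells against parental cells (62.8% as reported) and from 49.1% to 63.5% against PGCCs (55%). In SKOV3 PGCCs against parental cells it ranged from 42.3% with the trend removed to 65.8% (66.7%). In SKOV3 daughter cells it ranged from 52.5% to 75.2% against parental cells (70.5%), and from 48.1% after quantile normalization to 74.7% with the trend removed against PGCCs (61.2%). Between the parental lines it ranged from 28.4% to 47.9% (32.3%).

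Over all genes, limma called 0 in PGCCs against parental cells and in daughter cells against parental cells without a term for line, at a pseudocount of 0.1 and with all genes. Leaving out 1 library gave between 0 and 1 calls in PGCCs against parental cells, between 0 and 105 in daughter cells against parental cells and between 0 and 67 in daughter cells against PGCCs. The highest of the last 2 came without the Hey daughter library. At an unadjusted p under 0.05 in limma, the count of 4 lower in daughter cells against PGCCs became 2 without a term for line (0.334% of all genes). It was also 2 with all genes (1.93%), and 3 without the intensity trend (1.82%). The count of 1 lower in daughter cells against parental cells became 5 with median-ratio scaling (1.49% of all genes) and 0 without a term for line (0.16%). Without the Hey PGCC library, 3 were higher in PGCCs against parental cells (2.09%).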

Other observations

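Genes that share substrates with glycolysis were examined in the same way. TKT, transketolase, which moves carbon between the sugars of the pentose phosphate pathway and glycolysis, was 128.6, 430.2 and 271.5 TPM in SKOV3 parental cells, PGCCs and daughter cells and 147.9, 107.9 and 129.5 TPM in Hey. SKOV3 PGCCs stood above the other libraries, and the difference between the lines was not tested.

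Of 16 genes of the citric acid cycle, none passed 2-fold in PGCCs against parental cells of either line, with a median change of −0.36 in Hey and 0.08 in SKOV3. Of all genes tested, 7.67% were higher and 5.22% lower there in Hey, and 9.94% and 4.96% in SKOV3. Of 13 genes that govern the entry of pyruvate into mitochondria, none passed 2-fold in Hey PGCCs (7.67% and 5.22% of all genes tested). In SKOV3 PGCCs, 2 were higher and 2 lower (9.94% and 4.96% of all genes tested). The lower ones were DLAT and DLD, subunits of the pyruvate dehydrogenase complex.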
